A study of Mus musculus with 1 sample.

Results

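The genes of the mitochondrial respiratory chain and ATP synthase were described in single cells of wild type mouse gastric organoids. Members were the genes of the deposited matrix whose names start with Nduf, Uqcr, Cox4, Cox5, Cox6, Cox7, Cox8 or Atp5, the genes Sdha, Sdhb, Sdhc, Sdhd and Cyc1, and the mitochondrially encoded genes that start with mt-Nd, mt-Co, mt-Cytb or mt-Atp, without names that hold "-ps". This gave 107 of 32285 genes, of which 94 lie in the nuclear genome and 13 in the mitochondrial genome. The rule is written on gene names. The study measured 1 library of gastric organoids, which are epithelial cultures grown from stomach, labelled wild type and untreated. Cultures were taken on day 7 after seeding and brought to single cells with 0.05% trypsin-EDTA for 30 min at 37 °C. Transcripts were counted as unique molecular identifiers (UMIs), 1 per captured molecule, with a 10x Genomics 3' kit.

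The respiratory chain passes electrons from NADH (complex I) and succinate (complex II) through complex III to oxygen at complex IV, and the proton gradient that results drives ATP synthase (complex V). Complex II is encoded by nuclear genes alone. The other complexes join subunits made in the cytosol from nuclear genes with a small set made inside the organelle from mitochondrial DNA, and the latter sit at the membrane core of each complex. Nuclear and mitochondrial genes are transcribed by different polymerases, and stomach epithelium holds cells of high mitochondrial content, above all acid-secreting parietal cells.

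The library held 1991 barcodes with 20236916 gene UMIs. Barcodes with fewer than 500 genes, or with over 20% of their UMIs from the mitochondrial genome, were set aside, which left 1892 cells and 20118334 gene UMIs (median 8512.5 per cell, range 890 to 47183). Because the filter uses the mitochondrial share, the mitochondrial level below is capped by it and is a description only. With 1 library there is no replicate. No test between groups was made, and 95% intervals cover counting error only. The epithelial marker Krt18 had a UMI in 99.6% of cells. The 5 markers of gastric pit cells had 8970 UMIs (446 CPM), from 101 CPM in the lowest to 5474 CPM in cluster 7 of the clusters described below. UMIs of free RNA were not told apart from those of the cells. The 2 mucous neck markers had 356 UMIs. Erythroid, endothelial and parietal markers were at or near 0, with no UMI for 3 erythroid genes, 3 UMIs over 3 endothelial genes, and 30 UMIs over 4 parietal genes, of which Atp4b and Slc26a7 had none.

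Promoters of nuclear members are shown first, because transcription factors known for nuclear respiratory genes bind short motifs there. RefSeq (GRCm38.p6) gave a promoter, 250 bases before to 50 bases after the transcription start, for 76 of the 94 nuclear members. Each of 6 motifs was searched on both strands, and shares are of genes with a match anywhere in that window. GCGCATGCG, a core of the NRF1 site, occurred in 13.2% of member promoters and in 1.95% of all 27025 gene promoters. The longer palindrome, in which this core matches both strands 1 base apart, was searched first and occurred in 9.21% and 1.07%, and the shorter core was taken up after that. AAGATGGCG, the site of YY1, occurred in 10.5% and 1.64%, and 7 of the 8 members with it carried it after the start. CCGGAAGT, the ETS motif bound by GABPA, occurred in 6.58% and 4.31%. TCAAGGTCA, the site of the estrogen-related receptor ESRRA, occurred in 2.63% and 0.466%. GGGCGG (SP1) occurred in 46.1% and 38.2%, and TATAAA, the TATA box, in 10.5% and 15.7%. The NRF1, YY1, ETS, ESRRA (2 members) and SP1 letters were thus listed in a larger share of member promoters than of all promoters, and the TATA letters in a smaller one. All promoters here include those of genes without UMIs in these cells, and expressed genes were not set apart. A match is a string of letters and not a measured site. The stretches just upstream of the start of 5 members with a match there are printed 5′ to 3′ on the gene's strand, with the match in capitals. They stand for NRF1 (Ndufa11, Ndufaf4, where matches on both strands overlap, so that the capitals run over 10 bases), for the ETS motif in reverse or forward direction (Uqcrh, Uqcr11) and for ESRRA in reverse direction (Atp5g3). Ndufaf4, Uqcrh and Uqcr11 come back below as genes that differed between clusters of cells.

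Ndufa11, chr17:56717642-56717761, plus strand: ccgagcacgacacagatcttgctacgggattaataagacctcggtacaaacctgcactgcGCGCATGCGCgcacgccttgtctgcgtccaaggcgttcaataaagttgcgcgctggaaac

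Ndufaf4, chr4:24897963-24898082, plus strand: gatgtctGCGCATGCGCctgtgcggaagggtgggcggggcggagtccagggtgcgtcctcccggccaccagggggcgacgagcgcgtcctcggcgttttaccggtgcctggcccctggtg

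Uqcrh, chr4:116075072-116075190, minus strand: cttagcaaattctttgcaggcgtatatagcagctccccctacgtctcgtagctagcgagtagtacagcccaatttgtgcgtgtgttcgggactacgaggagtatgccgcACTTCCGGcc

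Uqcr11, chr10:80406831-80406941, minus strand: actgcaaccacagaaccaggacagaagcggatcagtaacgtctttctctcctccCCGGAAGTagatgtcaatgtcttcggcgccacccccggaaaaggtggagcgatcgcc

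Atp5g3, chr2:73911327-73911446, minus strand: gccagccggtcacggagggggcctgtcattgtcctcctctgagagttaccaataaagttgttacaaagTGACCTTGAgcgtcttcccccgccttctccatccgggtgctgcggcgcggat

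Summed over the kept cells, nuclear and mitochondrial members held nearly equal shares of the library. The 94 nuclear members made up 3.91% of gene UMIs (39073 CPM, the UMIs per 1000000 gene UMIs, 95% interval 38987 to 39160). The 13 mitochondrial members made up 4.03% (40260 CPM, 40172 to 40348), so the ratio of mitochondrial to nuclear UMIs was 1.03. The spread over genes differed. The 5 highest members held 82.7% of the mitochondrial UMIs but 24.7% of the nuclear ones. UMIs count molecule ends and were not divided by gene length.

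The balance of the genomes differed by complex. Complex IV, cytochrome c oxidase, was the only complex of the 4 with members in both genomes where the mitochondrial side was larger, at 24177 CPM from 3 genes against 13007 CPM from 20 nuclear genes, a ratio of 1.86 (1.85 to 1.87). In complex III, the ratio was 0.739 (0.732 to 0.746), from 4051 CPM of mt-Cytb against 5482 CPM of 9 nuclear genes. In complex I, the ratio was 0.703 (0.698 to 0.708), from 6824 CPM over 7 genes against 9709 CPM over 36. Complex V had the lowest ratio, 0.511 (0.507 to 0.514), from 5208 CPM over 2 genes against 10201 CPM over 17. Complex II, succinate dehydrogenase, summed to 397 CPM over its 4 genes, and the 8 complex I assembly factors of the Ndufaf names to 277 CPM. These sums run over different numbers of genes. The median member was at 99.7 CPM in complex II and at 30.0 CPM among the assembly factors, against 226 to 584 CPM over the nuclear members of the other complexes.

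**Figure D1:**
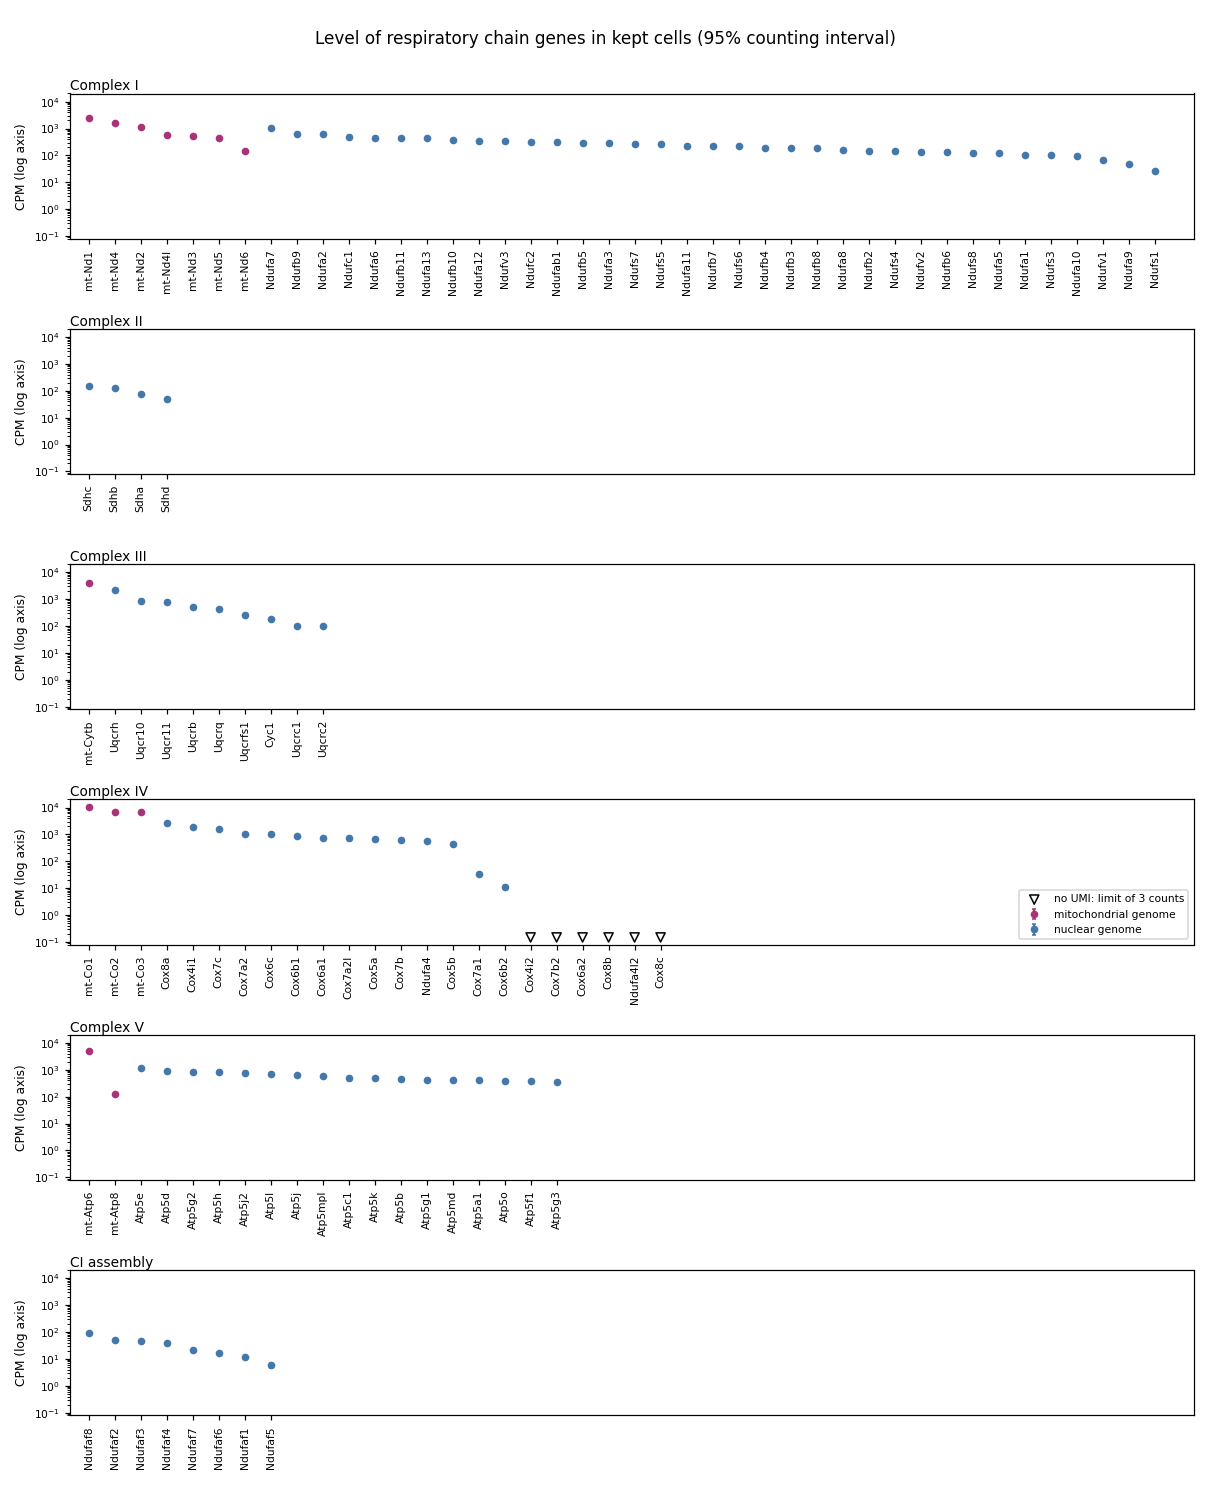
Level of the members shown, in CPM on a log axis, by complex (CI assembly, the complex I assembly factors), with mitochondrial genes (purple) before nuclear genes (blue). Bars, mostly smaller than the points, are 95% counting intervals and open triangles mark the limit of 3 counts for the 6 genes with no UMI. Among the mitochondrial genes mt-Atp8 and mt-Nd6 were at 121 and 148 CPM and mt-Co1 at 10365 CPM.

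The 13 mitochondrial genes covered a wide range. The 3 core subunits of complex IV led, with mt-Co1 at 10365 CPM, mt-Co2 at 7060 and mt-Co3 at 6752. They were followed by mt-Atp6, a subunit of the ATP synthase proton channel, at 5087 and by mt-Cytb, the cytochrome b of complex III, at 4051. The membrane subunits of complex I were lower: mt-Nd1 was at 2423 CPM, mt-Nd4 at 1620, mt-Nd2 at 1092, mt-Nd4l at 575, mt-Nd3 at 517 and mt-Nd5 at 449. The lowest were mt-Nd6 at 148 CPM, the only member of the 13 encoded on the minus strand of the annotation (positions 13552 to 14070 of the mitochondrial chromosome), and mt-Atp8 at 121 CPM. Neighbouring pairs of these genes are carried on shared transcripts, yet their counts differed: mt-Atp6 had 41.9 times (40.2 to 43.6) the UMIs of mt-Atp8, with which it shares 43 bases, and mt-Nd4 had 2.82 times (2.76 to 2.88) those of mt-Nd4l, with which it shares 7 bases. Reads from such shared bases cannot be given to 1 gene of the pair. UMIs also count molecule ends, so a transcript that carries both genes can be counted under the gene nearer its captured end. Levels within a pair are therefore uncertain and do not compare the amounts of the 2 reading frames. mt-Nd5 and mt-Nd6 overlap by 14 bases on opposite strands.

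Of the 94 nuclear members, 88 had a UMI, and each of these had at least 100. Among these, 41 were found in at least 90% of cells, as were 10 of the 13 mitochondrial genes. The highest were small subunits of complexes III and IV. Cox8a was at 2736 CPM, Uqcrh, the hinge protein of complex III, at 2241, Cox4i1 at 1833 and Cox7c at 1653. In complex V, Atp5e (epsilon subunit) at 1182 CPM, Atp5d (delta subunit) at 891 and Atp5g2 at 830 led, and Atp5g3 at 358 was lowest, so its 17 members lay within a narrow range. The catalytic alpha and beta subunits Atp5a1 and Atp5b were at 400 and 455 CPM.

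Complex I had its highest nuclear levels in accessory subunits, which are not part of the catalytic core. Ndufa7 was at 1017 CPM, Ndufb9 at 651 and Ndufa2 at 617. The core subunits that carry electrons were lower: Ndufs7 was at 276 CPM, Ndufv2 at 134, Ndufs8 at 127, Ndufs3 at 100 and Ndufv1, the subunit that binds NADH, at 66.8. Ndufs1, the largest core subunit, was lowest of the 36 at 26.0 CPM. In complex III the same order held: Uqcrh, Uqcr10 (847 CPM) and Uqcr11 (813 CPM), all small subunits, exceeded Uqcrfs1, the Rieske iron-sulfur protein (261 CPM), Cyc1, cytochrome c1 (188 CPM), and the core proteins Uqcrc1 (104 CPM) and Uqcrc2 (100 CPM). Of complex II, the membrane anchor Sdhc was at 150 CPM, the iron-sulfur subunit Sdhb at 123, the flavoprotein Sdha at 76.6 and the anchor Sdhd at 47.9. Assembly factors ranged from Ndufaf8 (89.9 CPM), Ndufaf2 (49.0) and Ndufaf3 (44.4) down to Ndufaf5 (5.77).

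Several subunits exist as isoforms from different genes, with some used in heart and skeletal muscle or in testis. Here the widely expressed isoform held nearly all UMIs. No UMI was found for the muscle isoforms Cox6a2 and Cox8b, the testis isoforms Cox7b2 and Cox8c, the lung isoform Cox4i2 or Ndufa4l2, a relative of Ndufa4 known to be raised in hypoxia. A limit of 3 counts would put Cox4i2 at up to 0.00814% of Cox4i UMIs and Ndufa4l2 at up to 0.0266% of the sum with Ndufa4. Isoforms with UMIs were Cox7a1, the muscle form of Cox7a, with 660 UMIs (2.98% of the sum with Cox7a2, interval 2.76 to 3.21), and Cox6b2, the testis form of Cox6b, with 232 UMIs (1.30%, 1.14 to 1.48). The 3 genes that encode the same c subunit of ATP synthase split their UMIs into 51.6% for Atp5g2, 26.2% for Atp5g1 and 22.2% for Atp5g3. By cluster of cells (described below), Atp5g2 held between 44.2% (cluster 7) and 61.2% (cluster 2) of this sum.

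Cell by cell, nuclear members had a median share of 3.85% of UMIs (range 0.603 to 8.15) and mitochondrial members of 4.07% (0 to 19.8). The median cell had a mitochondrial to nuclear ratio of 1.04, with quartiles of 0.695 and 1.47, 5th and 95th percentiles of 0.277 and 2.62, and a highest value of 27.1. In 43 cells the ratio was at most 0.1, with a median mitochondrial share of 0.205% and a median nuclear share of 5.60%. In 66 cells it was at least 3, with a median mitochondrial share of 12.8%. These high-ratio cells were shallow, at a median of 3637.5 UMIs, and had a median ribosomal protein share of 21%, against 34.9% over all cells. At the filter's edge, the 3 kept cells with the highest mitochondrial share were at 19.5%, 19.8% and 19.8%, and the 3 left-out barcodes just above it, with at least 500 genes, between 20% and 20.5%. The 23 barcodes with at least 500 genes above the limit held 1.58% nuclear member UMIs.

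**Figure D2:**
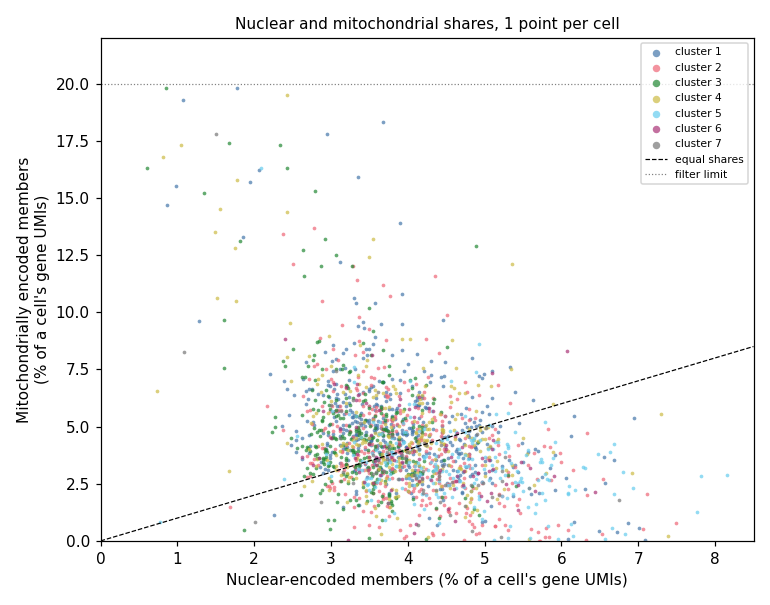
Each point is 1 cell, coloured by cluster: nuclear member share (x, percent of the cell's gene UMIs) against mitochondrial member share (y, percent). The dashed line marks equal shares and the dotted line the filter limit of 20%. Cells spread from few mitochondrial UMIs at high nuclear share to high mitochondrial share at low nuclear share.

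Across cells, the nuclear and mitochondrial shares ran in opposite directions. Over 1892 cells, Pearson's r was -0.43 and Spearman's rho -0.36. These are descriptions, because the points share a library and both shares are taken of the same cell total. With each cell thinned to 3000 UMIs (1835 cells) they were -0.34 and -0.32. Taken per UMI outside both sets and outside ribosomal protein genes they were -0.32 and -0.25, and rho was negative within each of 7 clusters (-0.20 to -0.46). Nuclear members of complexes I, III, IV and V varied together (rho 0.62 to 0.75), and those of complex II with them at 0.22 to 0.25. Complex II summed to only 397 CPM, against 5482 CPM or more for the nuclear part of each of the others. Counting error in so few UMIs per cell lowers rho, so these ranges cannot be compared. Mitochondrial members of different complexes varied together at 0.66 to 0.85. No pair across genomes had a positive rho (-0.06 to -0.38). The share of Malat1, a nuclear-retained long noncoding RNA, ran with the mitochondrial share (rho 0.42) and against the nuclear share (rho -0.56). Malat1 was chosen after its values were seen, and its part in the relation was not tested.

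Nuclear members were steadier between cells than mitochondrial ones. After counting error was taken off, the coefficient of variation between cells had a median of 31.2% over the 88 nuclear members and 52.4% over the 13 mitochondrial ones. For all genes with at least 1000 UMIs the median was 39.1%, against 31.1% for the 76 nuclear members at that depth. Among those 76, Atp5c1, the gamma subunit of ATP synthase, was lowest (15.1%), a gene picked after its value was seen, and Ndufa4, a subunit of complex IV in spite of its name, was highest (59.5%). Among the mitochondrial genes, mt-Nd6 varied most (106%) and mt-Cytb least (44.4%).

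**Figure D3:**
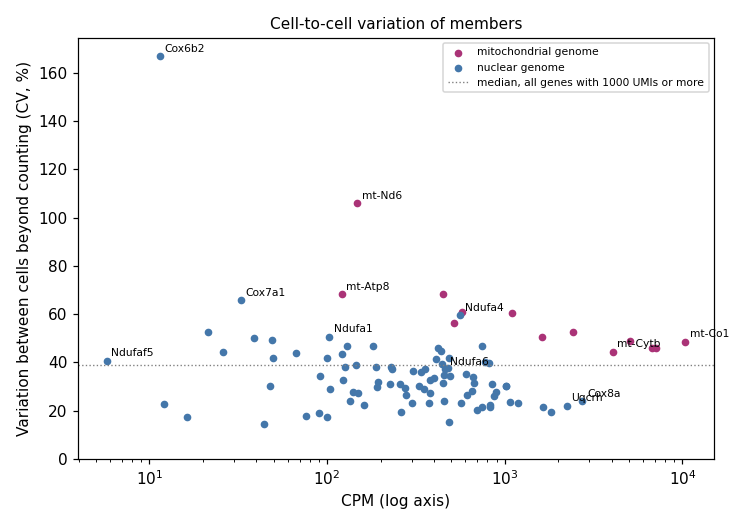
Variation between cells beyond counting error (coefficient of variation, percent) against level (CPM, log axis) of the members shown, each with at least 100 UMIs. The dotted line is the median of all genes with at least 1000 UMIs (39.1%). All 13 mitochondrial genes lie above it, and Cox6b2 is highest at 167%.

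Cells were grouped into 7 clusters without the members, and are named by number and leading genes. The clusters are cluster 1 (500 cells, Aox3 and Scgb3a1), cluster 2 (411, 2610528A11Rik and Gpr137b), cluster 3 (318, Ly6m and Ndrg1), cluster 4 (287, Cxcl2 and Cxcl5), cluster 5 (222, Psca and Prss22), cluster 6 (92, the mitotic genes Aspm and Knl1) and cluster 7 (62, Cyba and Reg3g). The mitochondrial to nuclear ratio ran from 0.685 (0.678 to 0.692) in cluster 5 to 1.21 (1.20 to 1.22) in clusters 1 and 3. Between them lay cluster 7 at 0.806, cluster 6 at 0.913, cluster 2 at 0.924 and cluster 4 at 1.03. The intervals of clusters 2 and 6 overlapped, as did those of clusters 1 and 3. Cluster 5 had both the highest nuclear share (4.61%) and the lowest mitochondrial share (3.16%). Clusters 1 and 3 reached the same ratio differently, cluster 1 with the highest mitochondrial share (4.70%, nuclear 3.88%) and cluster 3 with the lowest nuclear share (3.42%, mitochondrial 4.14%). The ratio of cluster 1 to the other cells (1.24) turned to 0.933 at a finer clustering, in a cluster that held 266 of its 500 cells, and that of cluster 2 (0.879) to 1.05 at a coarser one. Of the members named for single clusters below, 6 are placed here. They span, in GENCODE M21 on GRCm38, 11900292 to 11907497 of chromosome 6 (Ndufa4), 37187588 to 37191163 of chromosome X (Ndufa1), 82350140 to 82354322 of chromosome 15 (Ndufa6) and 4751792 to 4753094 of chromosome 7 (Cox6b2), all on the minus strand, and 24898083 to 24905001 of chromosome 4 (Ndufaf4) and 30184144 to 30186078 of chromosome 7 (Cox7a1), both on the plus strand.

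**Figure D4:**
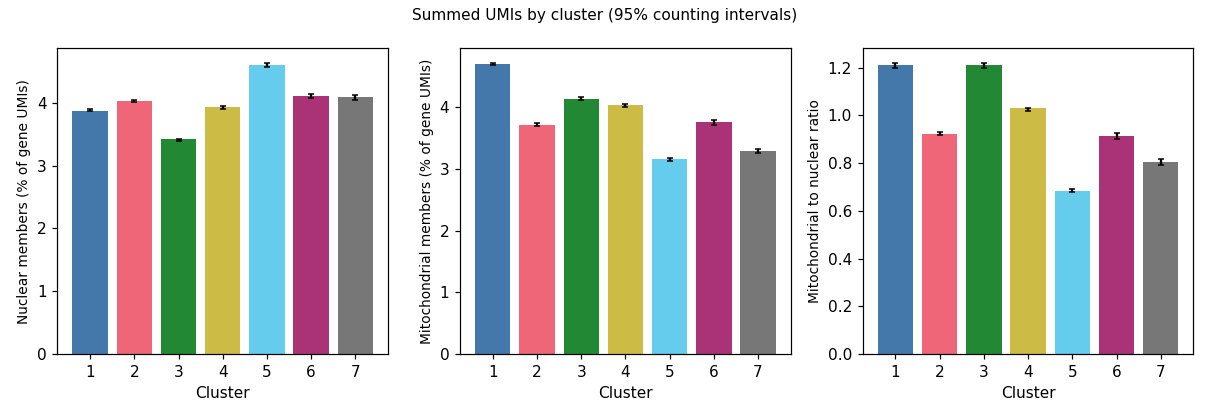
Summed share of nuclear members, of mitochondrial members, and their ratio in each cluster, from summed UMIs. Bars start at 0 and error bars are 95% counting intervals. Cluster 5 is highest for nuclear and lowest for mitochondrial members, at a ratio of 0.685.

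In cluster 5, nuclear members as a class stood 1.20 times (1.19 to 1.21) and mitochondrial members 0.767 times (0.761 to 0.774) the level in the other cells. All 13 mitochondrial genes were below 1 and 79 of 88 nuclear members above it, where 31.7% of all genes with at least 100 UMIs were above 1. A gene was called past a fold where its CPM in a cluster was at least 1.5 times, or at most the inverse, that in the other cells. Few nuclear members passed it: 2 of 88 were higher, where 2.61% of all genes were, and none was lower, where 23.6% were. Ndufb6, an accessory subunit of complex I, was at 192 against 124 CPM (1.54-fold). Ndufaf5 was at 8.69 against 5.47 CPM from 16 UMIs, with an interval of the ratio from 0.875 to 2.71. Of the 13 mitochondrial genes, 3 were past the fold downward (23.1%), a share near the 23.6% of all genes: mt-Nd6 (0.497), mt-Nd5 (0.552) and mt-Nd2 (0.616). By complex, the nuclear part was 1.23 times the other cells in complexes I and V, 1.18 in complex III, 1.17 in complex IV and 1.06 (0.984 to 1.14) in complex II, so the interval held 1 in complex II alone of the 5. Malat1 was at 10197 CPM here, the lowest of the 7 clusters. With Malat1 left out of the totals the nuclear level here was 1.18 times the other cells. That step changes the denominator alone, and a link between Malat1 and the nuclear level was not tested.

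In cluster 3, which had Ndrg1 among its leading genes, nuclear members stood at 0.846 times (0.841 to 0.851) the other cells and mitochondrial members at 1.04 times. Only 7 of 88 nuclear members were above 1, where 53.7% of all genes were. A count of 12 of 88 nuclear members (13.6%) were past the fold downward, where 8.55% of all genes were, and none upward, where 7.33% were. With genes of at least 500 UMIs, it was 10 of 83 (12%) against 6.16%. The lowest ratios were those of Ndufa1, an X-linked complex I accessory subunit (56.0 against 115 CPM, 0.487), Ndufa4 (308 against 629 CPM, 0.491) and Cox6b2 (0.492, from 27 UMIs). Uqcr11 was at 555 against 882 CPM (0.630), while Uqcrh was slightly above 1 (1.08). Malat1 was at 33045 CPM, the highest of the clusters. With Malat1 left out of the totals, which changes the denominator alone, the nuclear level here was 0.855 times the other cells.

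Cluster 2, which shared Ly6m and Ndrg1 among its leading genes, had Ndufa1 and Cox6b2 low as well. Ndufa6, a complex I accessory subunit, was the only member past the fold upward (692 against 419 CPM, 1.65-fold, interval 1.57 to 1.73), where 3.0% of all genes were. A count of 5 of 88 nuclear members were lower, where 24.8% of all genes were, led by Cox6b2 (0.239, from 10 UMIs), Ndufa1 (56.5 against 111 CPM, 0.507) and Ndufaf6 (0.538). Within the mitochondrial genes, mt-Co1 stood at 1.10 times the other cells and mt-Co3 at 0.826 times, and mt-Co1 held 30.2% of mitochondrial UMIs in cluster 2 against 23.0% in cluster 1.

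Cluster 7 was the smallest, at 62 cells. A count of 14 of 88 nuclear members (15.9%) were higher, where 20.9% of all genes were, and 4 nuclear members (4.55%) were lower, where 17.1% were. With genes of at least 500 UMIs, 13 of 83 were higher (15.7%), against 14.9% of all genes. The share of members past the fold was therefore close to or below that of all genes. The highest ratios were those of Cox6b2 (30.6 against 10.5 CPM, 2.91-fold, from 31 UMIs), the assembly factor Ndufaf4 (77.0 against 36.8 CPM, 2.09-fold) and Ndufa10 (154 against 88.3 CPM, 1.74-fold). The lowest were Cox7a1 (12.8 against 33.9 CPM, 0.379, from 13 UMIs), Ndufa6 (282 against 472 CPM, 0.598) and Uqcrh (1458 against 2283 CPM, 0.639), with mt-Nd6 the 1 mitochondrial gene past the fold (0.642). None of the 13 mitochondrial genes were above 1, where 54.2% of all genes were. The 8 assembly factors summed to 392 against 271 CPM (1.44-fold, 1.30 to 1.60). Of these, Ndufaf4 and Ndufaf2 (1.74) were past the fold upward and Ndufaf6 downward (0.659, from 11 UMIs), and Ndufaf5 was at 0.850 from 5 UMIs.

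Clusters 1, 4 and 6 differed less by gene. In cluster 1, no member was past the fold, where 2.47% of genes were higher and 8.84% lower, but all 13 mitochondrial genes were above 1, where 34.1% of all genes were, at 1.23 times in sum. In cluster 4, no member was past the fold, where 10.7% of genes were higher and 3.14% lower. In cluster 6, Cox6b2 (24.7 against 10.6 CPM, 2.33-fold), Ndufa5 (184 against 116 CPM, 1.58-fold) and Ndufaf7 (1.54-fold) were higher, where 11.4% of genes were, and Ndufaf4 was lower (0.481), where 7.12% were. None of the 13 mitochondrial genes were above 1 in cluster 6, where 57.6% of all genes were. Across the 7 clusters, 46 of 707 pairs of member and cluster (6.51%) were past the fold in either direction, where 21.6% of the pairs of all genes and clusters were. At 2-fold it was 10 pairs (1.41%), where 7.15% were. These shares include genes with few UMIs. With genes of at least 500 UMIs, 36 of 672 member pairs (5.36%) passed 1.5-fold, where 14.3% of the pairs of all genes did, while the nuclear members' share was above that of all genes for lower calls in cluster 3 and close to it for higher calls in cluster 7, as given above.

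Some members named above are given for every cluster, in CPM from cluster 1 to cluster 7. Ndufa4 was at 638, 408, 308, 675, 683, 757 and 844. Ndufa1 was at 137, 56.5, 56.0, 125, 125, 118 and 143. Both were therefore lower in clusters 2 and 3 than in any other cluster, while Ndufa6 was at 424, 692, 482, 364, 484, 374 and 282 and was highest in cluster 2. Uqcr11 was lowest in clusters 3 (555) and 2 (605) as well, and highest in cluster 5 (1163). Ndufaf4 was at 37.8, 30.4, 35.1, 43.9, 46.7, 19.3 and 77.0, and Cox7a1 at 32.9, 26.7, 23.3, 44.7, 45.6, 41.0 and 12.8. Of the minor isoforms, Cox6b2 held 0.385% of Cox6b UMIs (interval 0.185 to 0.707, 10 UMIs) in cluster 2 and 3.08% (2.11 to 4.35, 31 UMIs) in cluster 7. Cox7a1 held between 1.38% (0.739 to 2.36) of Cox7a UMIs in cluster 7 and 3.84% (3.29 to 4.44) in cluster 4. The interval ends of the lowest and the highest cluster did not overlap for either isoform.

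**Figure D5:**
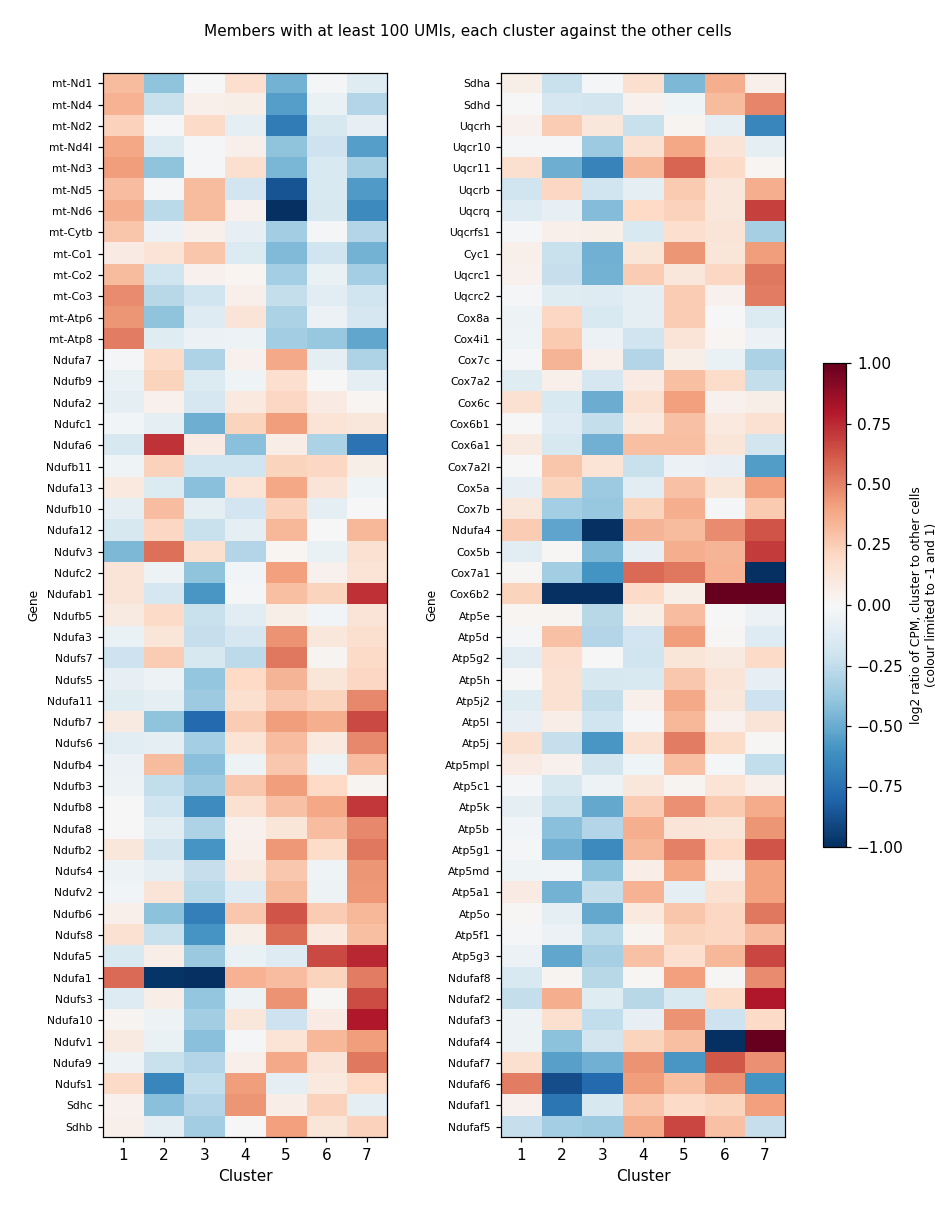
Colour gives the log2 ratio of CPM in a cluster to the other cells (limited to -1 and 1) for the members shown, each with at least 100 UMIs, mitochondrial genes first and then nuclear genes by complex. Mitochondrial genes are blue in cluster 5 and nuclear genes mostly blue in cluster 3, while Ndufa6 is red in cluster 2 (1.65-fold) and blue in cluster 7 (0.598).

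Other gene lists of mitochondria and metabolism were set beside the members; the clustering could use these genes, so their values describe the clusters. In cluster 5, the 78 mitochondrial ribosome genes summed to 1.17 times the other cells, with none past the fold, where 2.61% of all genes were higher and 23.6% lower. The 19 genes of mitochondrial DNA maintenance and expression summed to 0.836 times there, with 5 of 16 tested lower and 1 higher. The 10 regulators of mitochondrial biogenesis summed to 0.874 times, with 3 of 9 tested lower. The 13 TCA cycle genes summed to 1.08 times, with none past the fold. In cluster 3, the mitochondrial ribosome genes summed to 0.868 times, with 8 of 78 lower, where 8.55% of all genes were. The biogenesis regulators summed to 1.22 times (1 of 9 higher, where 7.33% of all genes were) and the TCA cycle genes to 0.785 times. The 12 genes of the hypoxia response summed to 1.91 times in cluster 3 and 1.70 times in cluster 2, with 9 and 6 of 11 tested genes past the fold upward, where 7.33% and 3.0% of all genes were. They summed to below 1 in the other clusters: 0.480 times in cluster 1 (8 of 11 lower, where 8.84% of all genes were), 0.611 in cluster 7 (7 lower, where 17.1% were), 0.670 in cluster 4 (4 lower, where 3.14% were), 0.755 in cluster 5 (3 lower, where 23.6% were) and 0.825 in cluster 6 (2 lower, where 7.12% were). The 16 glycolysis genes summed to 1.61 times in cluster 2, with 5 of 16 higher, where 3.0% of all genes were, and 1 lower, where 24.8% were. They summed to 1.29 times in cluster 3, with 1 higher, where 7.33% of all genes were. Ndufa4l2, which is known as a hypoxia-responsive member, had no UMI in any cluster. Glycolysis genes summed to 0.640 times in cluster 1, with none higher and 6 of 16 lower, where 8.84% of all genes were. In cluster 7 they summed to 0.664 times, with 1 higher, where 20.9% of all genes were, and 7 of 16 lower, where 17.1% were. The 10 regulators of mitochondrial biogenesis were at 280 CPM in sum.

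Cells called in S or G2/M phase (440) were set against G1 cells (1452). Nuclear members were at 4.06% against 3.86% and mitochondrial members at 3.76% against 4.10%, so the ratio of mitochondrial to nuclear UMIs was 0.925 against 1.06. No member was past 1.5-fold, where 6.74% of all genes were higher and 1.85% lower. With cycling cells called by a UMI of Mki67 or Top2a instead, the nuclear level turned from 1.05 to 0.992 times. By phase call, direction was common to most: 77 of 88 nuclear members were above 1 and none of 13 mitochondrial genes were, where 56.2% of all genes were above 1. Depth moved with the level as well. From the 473 shallowest to the 473 deepest cells, the nuclear share went from 4.15% to 3.78% and the mitochondrial share from 4.89% to 3.60%. In that comparison, mt-Nd5, mt-Nd4l, mt-Nd6 and mt-Atp8 were past the fold downward, where 1.57% of genes were, and none upward, where 8.10% were. With each cell thinned to 3000 UMIs, the nuclear level of cluster 5 was 1.19 times the other cells. Its mitochondrial to nuclear ratio was 0.624 times theirs (0.639 unthinned), and the ratio of cycling to G1 cells was 0.892 (0.871 unthinned). Thinning gives the cells equal weight but leaves each cell's expected share as it was. A link of depth with level was therefore not tested by it. The matrix also held 2 multiplexing tags in use, whose meaning the labels do not give. Between cells of tag CMO302 and tag CMO301 no member was past the fold, where 0.589% of genes were higher and 0.497% lower. Among the members, Ndufa13 overlaps Yjefn3 on the same strand and 30 overlap a gene on the other strand alone, so their counts could hold reads of those genes.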

How the data were processed

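Single-cell RNA was measured in 1 wild type library. The authors deposited whole-number UMI counts per gene and barcode, written by Cell Ranger 6.1.2 on GRCm38, per the submitters' processing notes; the annotation they counted on was not given in the sources used here. All 107 member identifiers were found in GENCODE M21. From the counts, cells with at least 500 genes and at most 20% mitochondrial UMIs were kept (1892 of 1991 barcodes), and CPM were summed over cells, with exact Poisson, Clopper-Pearson or conditional binomial intervals at 95%. Clusters used scanpy 1.11.5 and leidenalg 0.10.2 (2000 variable genes without members, mitochondrial, cell cycle and sex-linked genes, 30 components, 15 neighbours, resolution 0.6, seed 0). Calls needed a 1.5-fold ratio and 100 UMIs. Thinning kept 1835 cells of at least 3000 UMIs and left out 57. Doublets were kept; a caller marked 12 cells (0.634%). Tags (12 multiplexing oligonucleotides) were kept out of totals. Ratios, fold calls, counting intervals and thinned totals were tested on simulated data. Clustering, phase calls, correlations and the motif search were not tested that way. Named genes were all 13 mitochondrial members, in each complex the 3 highest and the lowest nuclear members and those without UMIs, core subunits, paralog sets, the 3 largest folds in each direction per cluster, and list genes; 1 complex I member is counted in sums but not reported or plotted here. Members and lists were chosen with earlier results of these data known. Alternatives were other cell filters, denominators, thinning, resolutions, tags and folds.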

Additional observations from a re-analysis of the deposited data

Results flagged for a closer look

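The row Ndufb1-ps, left out by the rule because of its name, held 8345 UMIs (415 CPM, a UMI in 93.1% of cells). GENCODE M21 lists it at chromosome 12, 101968090 to 101977068, on the minus strand as a bidirectional promoter long noncoding RNA, while RefSeq names the same symbol as a synonym of the protein-coding complex I gene Ndufb1. It was looked at because it is outside the members yet well above 0, and 7 of the 36 nuclear complex I members were higher. By cluster it ranged from 394 CPM (cluster 1) to 458 CPM (cluster 7).

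The multiplexing tags were outside the gene counts. By the tag with the most UMIs, 55.7% of barcodes belonged to CMO301 and 44.3% to CMO302, and the other 10 tags led in none. The labels do not say what the tags mark. The mitochondrial to nuclear ratio was 1.02 in CMO301 cells and 1.05 in CMO302 cells.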

How the results depend on the processing

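No paired analysis was possible because the data hold a single library. Values counted as moved where they left the main counting interval, which is narrow at this depth; the cause was not tested unless the setting itself changes the denominator or the cells. The nuclear share was 3.92% with at most 10% mitochondrial UMIs, 3.97% as a mean over cells, 4.07% of UMIs without mitochondrially encoded genes, 6.02% of UMIs without ribosomal protein genes, 4.0% of UMIs without Malat1, 3.90% without cluster 7, and 3.93% and 3.88% in CMO301 and CMO302 cells. The mitochondrial share was 3.93% with at most 10%, 4.08% with no limit, 4.0% with at least 1000 genes, 4.40% as a mean over cells, 4.06% without cluster 7, and 4.0% and 4.06% by tag. The ratio of both was 1.0, 1.05, 1.02, 1.11, 1.04, 1.02 and 1.05 under the same 7 settings. Complex IV held 33.3% of nuclear member UMIs, 33.4% as a mean over cells, 31.9% with Ndufa4 and Ndufa4l2 placed in complex I, and 33.2% and 33.4% by tag.

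For cluster 5 against the other cells, the mitochondrial to nuclear ratio was 0.639 times theirs, 0.655 with at most 10%, 0.624 thinned, 0.650 and 0.624 by tag and 0.629 without cluster 7. Its nuclear level was 1.20 times theirs, 1.25 with no limit, 1.19 without mitochondrially encoded genes, 1.23 without ribosomal protein genes, 1.19 thinned, 1.19 at resolution 1.0 and 1.18 without Malat1. At resolution 0.3, clusters 3, 4, 5 and 7 had no match, so no value was given. Directions turned for clusters near 1 or regrouped: the nuclear level of cluster 1 (0.992) became 1.0 without mitochondrially encoded genes, 1.01 without ribosomal protein genes, 1.05 at resolution 0.3 and 1.11 at resolution 1.0, where 266 of its 500 cells were shared and its mitochondrial to nuclear ratio was 0.933 times the other cells. Cluster 2 turned at resolution 0.3, to 0.921 for the nuclear level and 1.05 for the ratio, and the nuclear level of cluster 4 (1.01) to 0.944 without ribosomal protein genes and 0.999 at resolution 1.0. The mitochondrial to nuclear ratio of cluster 4 (0.994 times the other cells) lay from 0.929 with no limit to 1.05 thinned, and was 1.03 at resolution 1.0, so it crossed 1; it is not among the turned values counted below, because its main interval reached 1. At 2-fold, 10 pairs of member and cluster passed (1.41%, where 7.15% of all genes' pairs did) instead of 46 (6.51%, where 21.6% did). The cycling to G1 ratio of ratios (0.871) was 0.890 with no limit, 0.892 thinned, 0.951 with cycling cells called by a UMI of Mki67 or Top2a, where the nuclear level turned to 0.992, 0.902 without cluster 7 and 0.924 without clusters 6 and 7. The settings without cluster 7, without clusters 6 and 7, and without Malat1 were chosen after seeing the data. Among the alternatives for the comparisons' own values, 55 stayed within the interval and 43 moved. Among results named singly, 110 values stayed within their interval, 103 moved and 10 turned. Depth limits the genes with few UMIs, such as Ndufaf5 and Cox6b2, most.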
